A study of Rattus norvegicus with 8 samples.

Results

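The proliferative zone of the rat femur growth plate was compared with the other 3 zones of the plate. The comparison used the 2 arrays whose titles name the proliferative zone, of 8 arrays in all, and set them against the 6 arrays of the perichondral, reserve and hypertrophic zones. The labels describe femur of Rattus norvegicus aged 42 or 46 days, and each zone had 1 array per age. Each array held RNA pooled from 3 rats. No treatment, genotype, strain or sex is given in the sources used here, nor how the zones were cut apart or whether 1 set of animals supplied all zones. Signal was measured on a short-oligonucleotide array of 31042 probe sets, with RNA extracted on Qiagen RNeasy columns, amplified with the Nugen Ovation method and labelled with biotin.

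In the growth plate, chondrocytes of the reserve zone give rise to columns of flat cells that divide in the proliferative zone. These cells lay down a matrix of type II collagen and aggrecan, leave the cell cycle and enlarge into hypertrophic chondrocytes, which make type X collagen and are replaced by bone. The perichondrium is the fibrous sheath around the plate, and blood vessels, bone-forming cells and bone-resorbing cells gather at its edges, so that a dissected zone can carry cells of its neighbours.

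Values below are normalized log2(intensity + 16), and a difference is the proliferative mean minus the mean of the 3 other zone means on that scale. It understates the difference of dim genes. Each zone mean rests on n = 2 pools, 1 per age. A p-value here reflects how far the 2 pools of a zone, of unlike age, lie apart, taken over all zones. limma also draws that spread toward the one of probe sets with like mean signal (residual degrees of freedom 4, prior 12.58). Nothing says that this covers the variation between animals. A difference passed when limma's Benjamini-Hochberg adjusted p, over all probe sets, was below 0.05. The normalized median was 8.25 on every array, and 9.62 was the 0.95 quantile of 32 genes typical of other organs. That quantile serves as a level for background and is called the other-organ level. With RNA from tissue, fewer cells of a type and less RNA per cell cannot be told apart.

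The differences that passed the test were all toward lower signal in the proliferative zone. Of the 31042 probe sets, 6 were lower in the proliferative zone (0.0193%), and they stand for 5 named genes and 1 probe set without a gene name. These genes were the collagenase Mmp13, the gelatinase Mmp9, the bone sialoprotein Ibsp, the neutrophil protein S100a9 and the kinase Lats2. No probe set was higher (0 of 31042, or 0%), and the smallest adjusted p among positive differences was 0.419. At an unadjusted p below 0.05 there were 584 higher and 1143 lower probe sets with limma, 1727 of 31042. An unadjusted threshold of 0.05 passes probe sets without a difference as well, so these counts are not calls. No probe set was higher with any other setting tried. All 6 calls were lost without the 46-day proliferative array, where 0 passed. The count was 10 without the 42-day proliferative, 2 and 3 without the 42-day and 46-day reserve and 30 without the 46-day hypertrophic array. Pseudocount 64 kept all 6, and the values as deposited left 5, without Ibsp. The arrays centred on their medians, pseudocount 1 and a filter on dim probe sets each left 3. Of the named genes, these settings kept Mmp13 and S100a9 and lost Ibsp, Mmp9 and Lats2. The 6 others taken as 1 group left 2, and Ibsp was the only named gene among them. All 6 were also lost with an empirical Bayes fit without a variance trend, where the smallest adjusted p was 0.636.

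The promoters of Mmp13, Ibsp and S100a9, of the genes that were lower, are shown beside that of Nppc, a growth factor gene on the high side, so that the sequences upstream of genes on either side can be read together. Each runs 5′ to 3′ on the gene's strand over the 250 bases before the annotated start, from RefSeq on GRCr8. These are promoter intervals upstream of the first exon, and they are not probe positions, for which no build is named. Capitals mark matches on either strand. The motifs searched were the TATA box, spelled TATAAA, the box bound by nuclear factor Y, spelled CCAAT, the binding motif of AP-1, spelled TGANTCA, and that of the Runx family, spelled ACCACA.
Mmp13, chr8:12782579-12782828, plus strand: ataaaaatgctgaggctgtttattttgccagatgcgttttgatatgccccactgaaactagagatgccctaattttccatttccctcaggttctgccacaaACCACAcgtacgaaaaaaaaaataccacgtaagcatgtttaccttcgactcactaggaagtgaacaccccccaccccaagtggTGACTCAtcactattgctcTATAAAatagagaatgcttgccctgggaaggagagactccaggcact
Ibsp, chr14:5757243-5757492, minus strand: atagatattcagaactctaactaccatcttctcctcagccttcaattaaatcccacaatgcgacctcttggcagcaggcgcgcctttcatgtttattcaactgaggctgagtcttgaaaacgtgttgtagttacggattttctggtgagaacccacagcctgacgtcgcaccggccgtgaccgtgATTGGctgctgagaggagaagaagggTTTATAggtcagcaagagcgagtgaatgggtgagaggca
S100a9, chr2:178490623-178490872, minus strand: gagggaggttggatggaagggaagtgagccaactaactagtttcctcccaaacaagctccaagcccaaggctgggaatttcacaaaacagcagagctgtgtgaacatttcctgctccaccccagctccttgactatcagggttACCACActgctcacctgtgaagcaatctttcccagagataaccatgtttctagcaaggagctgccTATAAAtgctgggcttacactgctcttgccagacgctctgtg
Nppc, chr9:94772187-94772436, minus strand: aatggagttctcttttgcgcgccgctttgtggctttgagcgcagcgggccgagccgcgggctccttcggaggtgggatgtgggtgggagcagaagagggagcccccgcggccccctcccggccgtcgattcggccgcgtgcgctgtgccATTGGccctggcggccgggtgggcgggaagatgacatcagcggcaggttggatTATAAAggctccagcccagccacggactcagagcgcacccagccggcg
All 4 windows held a TATAAA match, which 12.9% of the 33469 promoter windows of this table also held within 250 bases. It began 47 bases before the start in Mmp13, 39 in Ibsp (on the other strand), 42 in S100a9 and 48 in Nppc. TGANTCA occurred only in the Mmp13 window of these 4, as TGACTCA from 66 to 60 bases before the start, and in 6.34% of all windows. ACCACA was found in Mmp13 (149 to 144 bases before the start) and S100a9 (107 to 102), and in 14.5% of windows. CCAAT was found on the other strand in Ibsp (65 to 61) and Nppc (101 to 97), and in 34% of windows. None of the 4 motifs overlapped another. These matches describe letters in a window and were not tied to the signal. Of the 6 genes looked up, 4 had an entry, and Mmp9 and Lats2 are named only.

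Mmp13 encodes collagenase 3, which cleaves type II collagen at the end of the cartilage programme. Its values were 8.65 and 8.57 in proliferative, 12.08 and 9.77 in perichondral, 14.75 and 14.73 in reserve and 14.73 and 14.09 in hypertrophic arrays. Both proliferative values were below all 6 others and below the other-organ level, and the nearest other array was the perichondral one at 46 days. The difference was -4.75 (SE 0.54, 27-fold lower, limma adjusted p = 0.00273). Against single zones it was -6.13 for reserve (limma adjusted p = 0.000948) and -5.80 for hypertrophic (adjusted p = 0.00411), and -2.32 for perichondral, which did not pass. At 42 days the difference was -5.21 and at 46 days -4.30. With each array left out in turn it ran from -5.14 to -4.37 and passed in 6 of 8 fits. It was lost without the 42-day (limma adjusted p = 0.0588) or the 46-day proliferative array (0.141).

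Ibsp encodes bone sialoprotein, an acidic glycoprotein of mineralising matrix. It read 10.42 and 6.05 in proliferative, 12.60 and 13.42 in perichondral, 14.52 and 14.33 in reserve and 15.66 and 12.47 in hypertrophic arrays. Both proliferative values lay below all 6 others, but they were far apart, with a mean of 8.24 ± 3.09 (SD, n = 2). The 46-day value was below the other-organ level and the 42-day value above it. The difference of -5.60 (SE 0.89, 48.4-fold, limma adjusted p = 0.0454) was the largest of the 6 and also had the largest SE of them. With an array left out it ran from -7.78 to -3.41 and passed in 2 of 8 fits, those without the 42-day proliferative (limma adjusted p = 0.0233) or the 46-day hypertrophic array (0.00721). In the other 6 fits limma's adjusted p ran from 0.0506 to 0.507. No single zone differed from the proliferative zone in Ibsp at the threshold, with -6.19 for reserve (limma adjusted p = 0.0606) and -5.83 for hypertrophic (adjusted p = 0.192).

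S100a9 is the partner of S100a8 in calprotectin, the main cytosolic protein of neutrophils. Its signal was 6.36 and 5.44 in proliferative, 9.63 and 7.89 in perichondral, 13.34 and 13.56 in reserve and 10.13 and 9.20 in hypertrophic arrays. The reserve arrays were the highest, and the proliferative arrays were below all 6 others. The difference was -4.72 (SE 0.60, 26.4-fold lower, limma adjusted p = 0.00582), at -4.67 at 42 days and -4.78 at 46 days. Against reserve it was -7.55 (limma adjusted p = 0.000438), and against hypertrophic -3.77, which did not pass (adjusted p = 0.267). It ran from -5.19 to -4.26 with an array left out and passed in 5 of 8 fits. It was lost without the 46-day proliferative (limma adjusted p = 0.15), the 42-day reserve (0.138) or the 46-day reserve array (0.134).

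Mmp9, a gelatinase abundant in osteoclasts, passed the test without being separate from all 6 others, and it is named here after its values were seen. It read 5.48 and 5.70 in proliferative, 9.04 and 5.36 in perichondral, 13.30 and 12.09 in reserve and 11.79 and 12.48 in hypertrophic arrays. The 46-day perichondral array was as low as the proliferative ones, while reserve and hypertrophic arrays were high. The difference was -5.09 (SE 0.76, 34.1-fold lower, limma adjusted p = 0.0347). A second Mmp9 probe set overlapped the others, at -1.65 (limma adjusted p = 0.871). It passed against reserve (-7.11, limma adjusted p = 0.00655) and against hypertrophic (-6.55, adjusted p = 0.025). With an array left out it passed in 3 of 8 fits, those without a perichondral array or the 46-day hypertrophic array. In the other 5 fits limma's adjusted p ran from 0.0506 to 0.291.

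Lats2 is a kinase of the Hippo pathway that phosphorylates and restrains the growth-promoting factors Yap and Taz. Its values were 8.37 and 6.06 in proliferative, 11.91 and 12.06 in perichondral, 12.23 and 11.56 in reserve and 8.56 and 9.38 in hypertrophic arrays. The proliferative arrays were below all 6 others, with hypertrophic arrays close above and perichondral and reserve arrays high. The difference was -3.74 (SE 0.59, 13.3-fold lower, limma adjusted p = 0.0454). It passed against reserve (-4.68, adjusted p = 0.0334) and not against hypertrophic (-1.75, adjusted p = 0.897). With an array left out it ran from -4.89 to -2.58 and passed in 3 of 8 fits, those without the 42-day proliferative array or a hypertrophic array. In the other 5 fits limma's adjusted p ran from 0.192 to 0.388.

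The sixth probe set, 1387029_at, has no gene name in the tables used here. It read 8.09 and 7.35 in proliferative, 11.77 and 10.78 in perichondral, 12.64 and 12.98 in reserve and 12.93 and 11.40 in hypertrophic arrays. Both proliferative values were below the other-organ level and all 6 others were above it. The difference of -4.36 (SE 0.51, 20.6-fold lower, limma adjusted p = 0.00273) was -4.36 at 42 days and -4.37 at 46 days. Outside the threshold, the next named genes were Boc (-4.36), Steap4 (-2.55) and Col1a1 (-4.87), each with a limma adjusted p of 0.149.

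**Figure D1:**
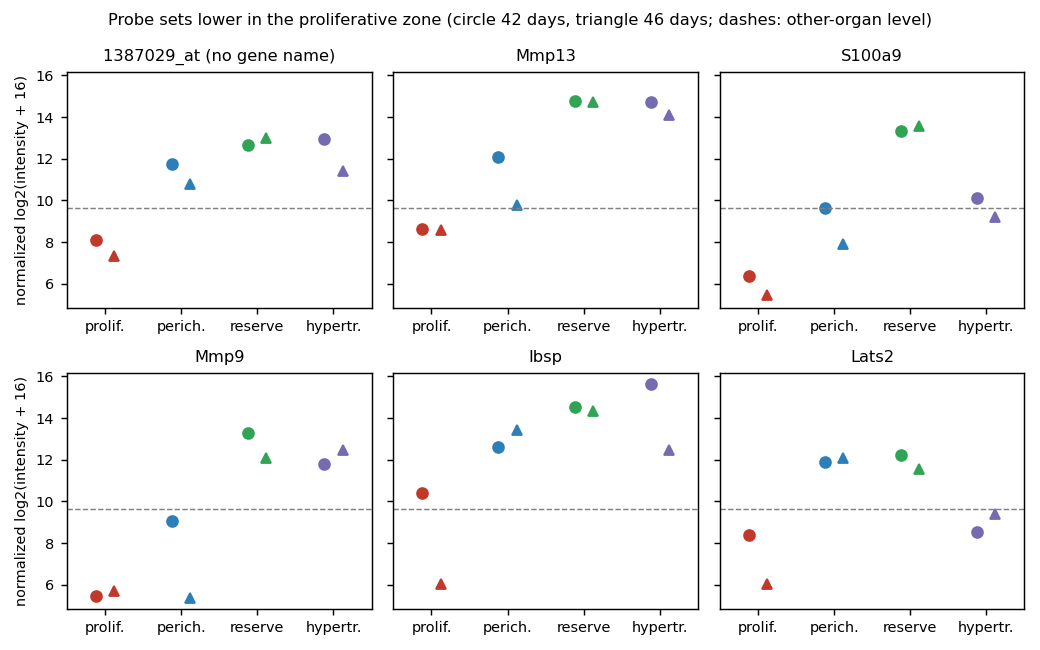
Normalized log2(intensity + 16) of the 6 probe sets lower in the proliferative zone, by zone, with a circle for the 42-day and a triangle for the 46-day pool and a dashed line at the other-organ level of 9.62. In 5 of the 6 panels both proliferative points lie below all 6 others, and in the Mmp9 panel the 46-day perichondral point is as low.

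Taken zone by zone, the contrasts passed few probe sets. Against the perichondral zone limma passed 0 higher and 0 lower (0% each). Against the reserve zone 0 were higher and 7 lower (0.0226%), namely Mmp13, S100a9, Mmp9, Lats2, Steap4 and 2 probe sets without a name. Against the hypertrophic zone 3 were lower (0.00966%), Mmp13, Mmp9 and 1387029_at, and 1 was higher (0.00322%), a probe set without a name at 5.04. These contrasts share the proliferative arrays, so their overlap is not a separate result.

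Separation of the values was counted without a test. Any 2 of 8 arrays lie outside the other 6 in some probe sets without a zone difference. These counts were not set against that share and are not counts of zone differences. Both proliferative values lay above all 6 others in 1369 probe sets (4.41%) and below all 6 in 1096 (3.53%). With 1 probe set per gene, 532 of 14217 genes lay above (3.74%) and 563 below (3.96%). Members of a gene list above or below all 6 others are to be read beside these shares. The median difference was 1.36 among the genes above and -1.79 among those below. Of the 532 genes above, both proliferative values exceeded the other-organ level in 148. Of the 563 below, all 6 other values exceeded it in 81. At the edge of the rule, Casz1 was the gene above with the smallest gap (1.15e-04) and Magix the nearest miss (-1.10e-03), with Kank2 (1.40e-04) and Grk6 (-6.19e-04) in the same places below.

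By the mean of its 2 arrays, the zone nearest to the proliferative pair was most often hypertrophic, in 191 of the 532 genes above and 224 of the 563 below. It was perichondral in 186 and 200, and reserve in 155 and 139. Over the upper 0.2 of probe sets by mean signal, the 42-day proliferative array correlated with the 46-day perichondral array at r = 0.764, and with the 46-day array of its own zone at 0.615. The 46-day proliferative array correlated most with the 46-day hypertrophic array (0.735). The 2 arrays of a zone correlated at 0.755 in perichondral, 0.769 in reserve and 0.531 in hypertrophic. These r are across probe sets on quantile-normalized arrays, which are not independent replicates.

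The ages gave different orders of genes. Computed within each age, with no array in common, the proliferative difference correlated at r = 0.0718 between 42 and 46 days over 14217 genes, and 53.2% of genes had the same sign. Over the 2548 genes with a mean above the other-organ level, r was 0.18 and 55.5% had the same sign. These r are descriptions across genes, which share the amplification and the normalization. Over all 14217 genes the median SD between the 2 pools of a zone was 0.655 in proliferative arrays, against 0.575 in perichondral, 0.542 in reserve and 0.701 in hypertrophic arrays.

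A sign of RNA quality differed between arrays. For the Gapdh control, the ratio of 3' over 5' signal, which grows as RNA is degraded or incompletely copied, was 7.10 and 5.39 in proliferative arrays, 4.47 and 3.78 in perichondral, 8.15 and 3.96 in reserve and 4.30 and 3.63 in hypertrophic arrays. For the actin control the ratios were 1.85 and 4.56 in proliferative, 1.64 and 0.557 in perichondral, 4.65 and 2.32 in reserve and 1.71 and 4.59 in hypertrophic arrays, a different order. The part of RNA quality in the differences was not tested.

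The genes that stood highest above the other zones were of many kinds, and none passed the test. By the gap between the lower proliferative value and the highest other value, among genes above the other-organ level, the first 15 had gaps from 0.544 to 1.29 and differences from 0.91 to 2.90, with limma adjusted p from 0.57 to 0.871. The largest gap was that of Smim5, a small membrane protein. It read 11.12 and 12.04 in proliferative, 9.83 and 8.11 in perichondral, 9.69 and 8.95 in reserve and 9.71 and 5.79 in hypertrophic arrays. The 46-day hypertrophic array was far below the rest and the difference was 2.90 (SE 0.82, limma adjusted p = 0.57).

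The gene of this group best known in the growth plate was Nppc, which encodes C-type natriuretic peptide, a secreted stimulator of bone lengthening. It read 11.01 and 11.64 in proliferative, 10.36 and 10.22 in perichondral, 9.48 and 9.49 in reserve and 9.48 and 9.62 in hypertrophic arrays. Proliferative arrays were the highest, the perichondral arrays came next, and the reserve and hypertrophic arrays lay close together. The difference was 1.55 (SE 0.47, limma adjusted p = 0.649), with 1.24 at 42 days and 1.87 at 46 days. Npr2, its receptor, overlapped, at 6.33 and 7.44 against a lowest, median and highest of 6.97, 8.08 and 9.21 in the 6 others, and below the other-organ level in all 8 arrays.

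Several others belong to protein export, mitochondria and gene control. Prrx1, a homeobox factor of limb mesenchyme, read 10.06 and 10.37 against 5.15, 8.40 and 9.20 (lowest, median and highest) in the 6 others, a difference of 2.16. Triples of values below keep that order. Sec31a, a coat protein of vesicles leaving the endoplasmic reticulum, read 10.51 and 10.09 against 7.12, 8.14 and 8.99, a difference of 2.23. The mitochondrial members were Ndufs6, a subunit of respiratory complex I (10.71 and 11.01 against 8.75, 9.72 and 9.97), and Hspa9, a chaperone (9.95 and 9.80 against 7.0, 8.75 and 9.18). Each of these genes was above all 6 others by the rule that chose it. Other Hspa9 probe sets gave -0.74, -0.47 and 1.05, the last of them above all 6 others. In the oxidative phosphorylation list 22 of 32 measured genes had a negative difference, and the median was -0.39.

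The transcription factor Tfap2b read 12.49 and 12.36 against 11.09, 11.63 and 11.78 in the 6 others. Bard1, the partner of Brca1 in DNA repair, read 9.82 and 9.67 against 7.69, 8.88 and 9.09. Ficolin B (Fcnb), a lectin of myeloid cells, read 9.87 and 10.14 against 6.22, 8.55 and 9.17. The lower proliferative value exceeded the highest other value in each of these 3. The deubiquitinases Usp3 (1.65) and Zranb1 (1.5), the adhesion protein Nectin2 (1.36), Iqck (2.39), LOC102554609 (1.51) and LOC102547242 (2.01) complete the 15 genes.

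Other probe sets of the same genes seldom repeated this separation. Among the 15 genes above, 6 had further probe sets, 10 in all, of which 4 had a positive difference and 1 lay above all 6 others. For Sec31a the other probe set gave -0.68 and for Prrx1 0.08. Among the 15 genes below, 8 had 12 further probe sets, of which 9 had a negative difference and 1, for Col1a1, lay below all 6 others at -3.41. Probe sets of a gene can target different transcript ends.

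**Figure D2:**
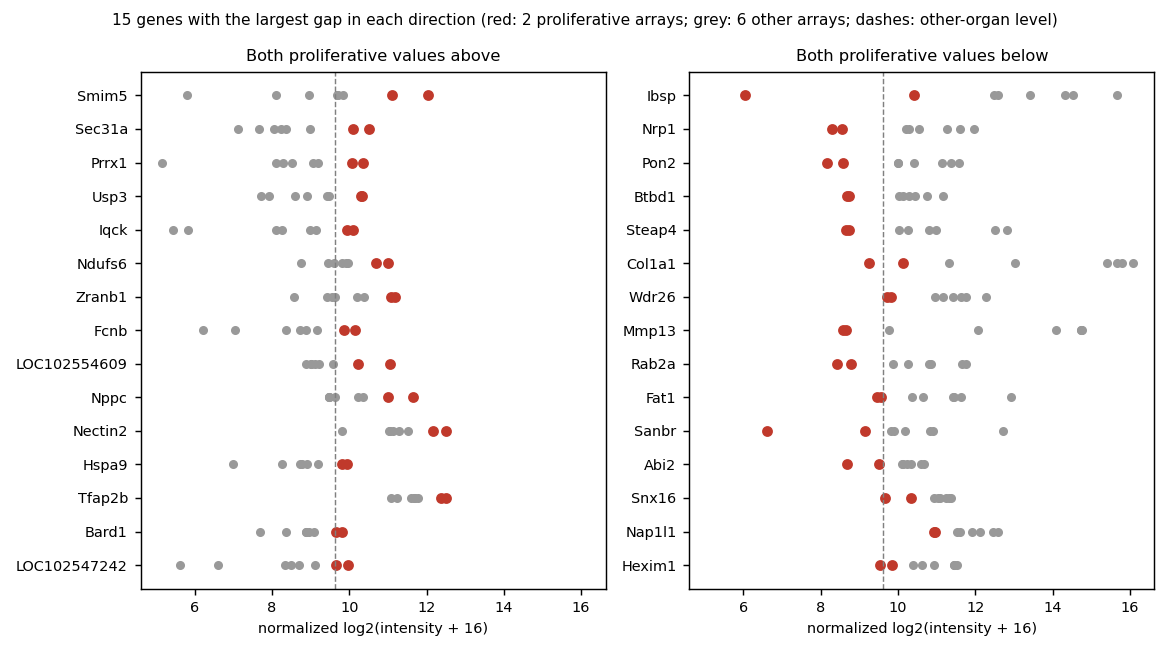
Normalized log2(intensity + 16) of the 15 genes with the largest gap above (left) and below (right) all 6 other arrays, with the 2 proliferative arrays in red, the 6 others in grey and a dashed line at the other-organ level. The gaps above run from 0.544 to 1.29 and those below from 0.546 to 2.05, and the right panel holds the genes with the widest differences.

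The 15 genes with the largest gap below were led by Ibsp, whose gap of 2.05 was the widest in either direction. Col1a1, which encodes the main chain of type I collagen in bone and fibrous tissue, read 10.12 and 9.24 in proliferative, 15.41 and 13.03 in perichondral, 15.80 and 15.66 in reserve and 16.09 and 11.33 in hypertrophic arrays. Every proliferative value was below every other value, and the difference was -4.87 (SE 0.89, limma adjusted p = 0.149). It passed with the 42-day hypertrophic array left out (-4.08, limma adjusted p = 0.0297) and with the 46-day one left out (-5.66, adjusted p = 0.00207). Col1a2, the second chain, read 12.17 and 11.36 against 12.29, 15.51 and 16.39 in the 6 others, a difference of -3.32 (limma adjusted p = 0.418). Its separation from all 6 was lost in the values as deposited and with median centring.

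Nrp1, a co-receptor for semaphorins and vascular endothelial growth factor, read 8.31 and 8.57 in proliferative, 10.55 and 10.21 in perichondral, 10.28 and 11.61 in reserve and 11.96 and 11.28 in hypertrophic arrays. The proliferative pair was below all others, at a difference of -2.55 (SE 0.50, limma adjusted p = 0.227). Steap4, a metalloreductase, read 8.72 and 8.65 against 10.01, 10.90 and 12.82 in the 6 others (-2.55), and it was lower than in the reserve zone at -3.98 (limma adjusted p = 0.0162). Its values did not overlap those of any other zone.

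The others in that group are widely expressed. Fat1, a large cadherin, read 9.46 and 9.56 against 10.36, 11.43 and 12.92, and the antioxidant lactonase Pon2 8.58 and 8.16, below all 6 others. Rab2a, a small GTPase between the endoplasmic reticulum and the Golgi, read 8.42 and 8.79 against 9.87, 10.83 and 11.77. Differences were -1.89, -2.38 and -2.27 in that order, none of which passed. Nap1l1, a histone chaperone, Hexim1, an inhibitor of transcription elongation, Abi2, an actin regulator, the endosomal Snx16, Wdr26, Btbd1 and Sanbr had differences from -2.85 (Sanbr) to -1.10 (Nap1l1). The probe sets of Sanbr disagreed, since another lay above all 6 others (0.53) and a further one overlapped (-0.25). Other probe sets of Btbd1 (0.69) and Snx16 (0.42) were also positive. Those of Nap1l1 (-1.94 and -0.90) and Wdr26 (-1.19, -0.89 and -0.23) were negative.

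No measured gene of cell division passed the test in these arrays. Mki67, present in cycling cells, read 12.84 and 13.04 in proliferative, 12.22 and 12.51 in perichondral, 12.83 and 13.94 in reserve and 14.02 and 12.84 in hypertrophic arrays. The proliferative values fell inside the range of the others, and the difference was -0.12 (SE 0.51, limma adjusted p = 0.977). Of 37 measured cell division genes, 14 had a positive and 23 a negative difference. A proliferative mean above the other-organ level was found in 12 of them (2610 of 14217 over all genes). Another 12 were never above it (8164 of 14217 over all genes). The median was -0.18, against 0.00 over all 14217 genes, and 0 members passed in either direction. On simulated data the test recovered 0% of changes of 1 and 5.8% of changes of 2 (log2), so changes of that size would mostly be missed.

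Only Birc5, which encodes survivin, a protein of the chromosomal passenger complex, lay above all 6 others in that list (background 3.74%). It read 10.06 and 9.80 against 8.73, 9.14 and 9.47 in the 6 others. Bub1, a checkpoint kinase of the spindle, and Prc1, a crosslinker of the spindle midzone, lay below all 6 (3.96% over all genes). Bub1 read 7.54 and 7.87 against 7.94, 9.08 and 11.10, and Prc1 7.64 and 8.11 against 8.57, 8.98 and 10.04. In the values as deposited, neither lay below all 6. The summed intensity of the list was 32485 and 32645 in proliferative arrays, within the range of 29806 to 57948 in the others.

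The 31 DNA replication genes showed a median difference of 0.082 (-0.036 with all probe sets of each gene), with 16 positive and 15 negative, and 0 passed. Of the 31, 7 had a proliferative mean above the other-organ level and 16 were never above it. Over all 14217 genes these numbers were 2610 and 8164. Pole, the catalytic subunit of polymerase epsilon (-2.16), and Pola2, a subunit of polymerase alpha (-1.14), lay below all 6 others (3.96% over all genes). Both were below the other-organ level in every array. Pcna, the sliding clamp of replication, read 11.05 and 10.63 against 10.66, 11.12 and 12.95, a difference of -0.62. Mcm2, a subunit of the replicative helicase, had 1.04, Cdk1, the mitotic kinase, -0.47, Top2a, the mitotic topoisomerase, -0.95, Ccnd1, the G1 cyclin, -0.031 (0.078 as deposited) and the histone gene Hist1h4b -1.93. None of these 6 passed, and another Top2a probe set gave 0.46. Of 13 inhibitors of the cell cycle, 6 were positive and 7 negative, with 0 above or below all 6 others.

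Cartilage matrix genes did not differ from the mean of the other zones at the threshold. Of the 22 measured, 16 had a proliferative mean above the other-organ level (2610 of 14217 over all genes). Col2a1, the main collagen of cartilage, read 17.40 and 17.21 in proliferative, 17.80 and 17.58 in perichondral, 17.58 and 17.40 in reserve and 17.13 and 15.86 in hypertrophic arrays. The values overlapped those of the other zones, and the difference was 0.081 (SE 1.02, limma adjusted p = 0.993). Of 22 measured members, 16 had a positive and 6 a negative difference, and 0 passed. The median difference was 0.39 against the mean of 3 zones and 1.37 against the hypertrophic zone alone. It was 0.02 against perichondral and -0.19 against reserve.

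Scrg1, a small secreted protein of chondrocytes, was the one member above all 6 others (3.74% over all genes). It read 11.97 and 12.30 in proliferative, 11.57 and 11.31 in perichondral, 11.49 and 11.16 in reserve and 8.89 and 9.46 in hypertrophic arrays. The proliferative arrays were the highest and the hypertrophic arrays among the lowest, at a difference of 1.49 (SE 0.44, limma adjusted p = 0.622). With arrays centred on their medians it no longer lay above all 6. Cytl1, a secreted factor of cartilage, was the member below all 6 (3.96% over all genes). It read 5.07 and 5.61 against 6.61, 7.96 and 9.47, a difference of -2.74 with all arrays below the other-organ level.

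The other matrix genes named here, and the receptors and ligand of the plate, overlapped. Comp, a pentameric protein that binds collagen, read 11.49 and 11.29 against 9.05, 10.28 and 11.53 (1.12), and Acan, the core protein of aggrecan, 13.08 and 12.69 against 10.66, 12.13 and 14.12 (0.58). Matn1, a filament-forming matrix protein, had a difference of 0.13 (-0.069 with median centring). Fgfr3, a receptor that slows chondrocyte division, read 12.44 and 12.96 against 12.39, 12.84 and 13.59 (-0.26). Pth1r, the receptor of parathyroid hormone-related protein, read 9.45 and 9.61 against 8.65, 9.21 and 9.58 (0.40). Ihh, the hedgehog ligand of the plate, was below the other-organ level in all 8 arrays (-0.18). None of these 6 passed with limma. For Acan, Fgfr3 and Pth1r another probe set had the opposite sign, at -0.48, 0.64 and -0.07.

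Genes of resting chondrocytes were mostly dim, as were most genes measured. Of 15 measured members, 10 were never above the other-organ level (8164 of 14217 over all genes). Their differences were positive in 7 of the 15 and negative in 8, with a median of -0.29. Cd200, a surface glycoprotein, lay below all 6 others (3.96% over all genes). It read 5.17 and 5.08 against 5.78, 9.15 and 9.67 (-3.51, limma adjusted p = 0.57). Another Cd200 probe set overlapped (-0.79).

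Hypertrophic genes included 3 of the 5 named genes that were lower. Col10a1, which encodes the collagen of hypertrophic cartilage, read 12.62 and 10.94 in proliferative, 13.66 and 13.78 in perichondral, 11.78 and 10.88 in reserve and 16.93 and 15.26 in hypertrophic arrays. Proliferative arrays lay well below hypertrophic ones, near the reserve and below the perichondral arrays. The difference was -4.32 from the hypertrophic zone (limma adjusted p = 0.0766), and from the mean of 3 zones -1.94 (SE 0.58, limma adjusted p = 0.649). Of 18 measured members, 13 had a negative difference and the median was -0.44. Those called lower were 3, Ibsp, Mmp13 and Mmp9 (0.0352% of all genes). Panx3, a channel of maturing chondrocytes, read 11.09 and 10.18 against 8.51, 9.34 and 11.02 (1.10).

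The summed intensity of the hypertrophic list was 20320 and 13978 in the 42-day and 46-day proliferative arrays, against 33068 to 245114 in the 6 others. Left without Ibsp, Mmp13 and Mmp9, a choice made after the values were seen, it was 18550 and 13529 against 22062 to 162828. The hypertrophic list shares members with the bone list, Ibsp among them, and Mmp9 with the osteoclast list. Of 10 bone genes, 8 had a negative difference, with a median of -0.95, and 1 (Ibsp) was called (0.0352% over all genes). Below all 6 others were 3 (3.96%), Ibsp, Col1a1 and Col1a2. Dmp1, a matrix protein of osteocytes, overlapped, at 8.89 and 8.04 against 7.80, 11.12 and 13.76 (-2.76). Bglap, osteocalcin, read 5.45 and 8.79 against 5.65, 7.75 and 11.54.

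**Figure D3:**
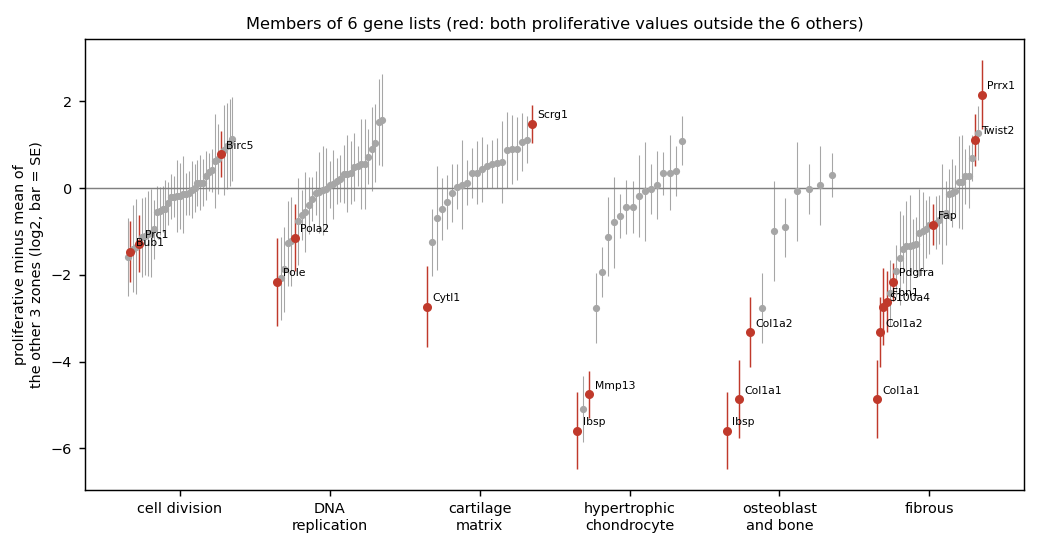
Difference of each measured member of 6 gene lists (proliferative mean minus the mean of the 3 other zone means, log2, bars give the SE), with members whose 2 proliferative values lie outside all 6 others in red and named. Cell division and replication genes scatter on both sides of 0. Ibsp, in the hypertrophic and bone lists, lies lowest at -5.60, followed by Mmp9 at -5.09 and Col1a1 at -4.87.

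Markers of cells that could come with a dissected zone were followed as lists. The osteoclast list had a median difference of -1.52 over 10 genes, 8 of them negative, and 1 (Mmp9) was called (0.0352% over all genes). No member exceeded the other-organ level in both proliferative arrays. Ctsk, the collagen-degrading protease of osteoclasts, read 4.86 and 8.29 against 7.41, 9.06 and 11.24, and the phosphatase Acp5 6.52 and 6.30 against 5.01, 7.83 and 9.83. Its sum was 1542 and 1707 in proliferative arrays, against 1539 to 19898.

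The leukocyte and marrow list had a median of -0.82 over 19 genes, 12 of them negative, and -0.26 with all probe sets of each gene. The 1 member called was S100a9 (0.0352% over all genes). The median was -1.87 within 42 days and 0.52 within 46 days. Cd3e, a chain of the T cell receptor complex, lay above all 6 others (3.74% over all genes). It read 8.61 and 8.97 against 5.05, 7.37 and 8.10, below the other-organ level. Another Cd3e probe set overlapped (0.45). Summed intensity was 3811 and 4505, against 3272 to 43813. For the erythroid list the median was -0.90 over 10 genes, with 1 below all 6 (3.96% over all genes), the blood factor Gata1. Gata1 read 8.54 and 8.71 against 8.72, 9.32 and 10.51, a gap of 0.0081 that was lost in the values as deposited. The erythroid sum was 3536 and 5154 against 4033 to 50953.

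The endothelial list had a median of -0.30 over 12 genes, and 2 lay below all 6 others (3.96% over all genes). These were Kdr, the main receptor of vascular endothelial growth factor, and Cldn5, a tight junction protein. Kdr read 6.88 and 8.69 against 9.49, 10.10 and 11.58, and Cldn5 4.75 and 4.78 against 5.49, 7.06 and 8.06. Their proliferative values lay below the other-organ level, and another Kdr probe set overlapped (-0.34). The sum was 2836 and 3445 against 3149 to 9431. Muscle marker sums, at 35575 and 72700 against 28096 to 64374, overlapped, and the median was 0.28 over 12 genes. Of these, 9 were never above the other-organ level (8164 of 14217 over all genes). The endothelial and muscle lists had no member that passed. The part that such cells played in the 6 calls was not tested.

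**Figure D4:**
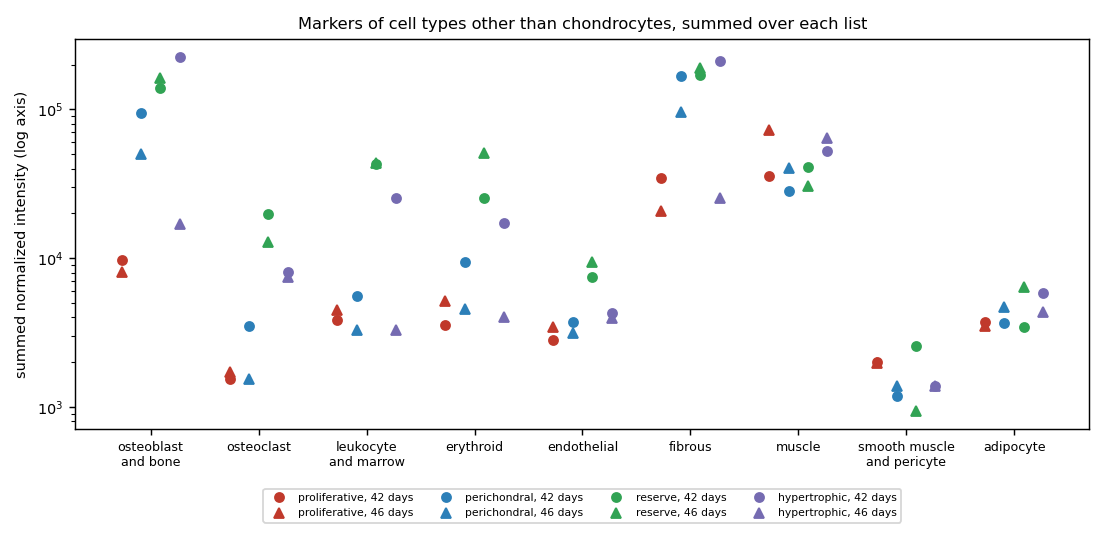
Summed normalized intensity (log axis) of 9 marker lists of cells other than chondrocytes on each array, coloured by zone, with a circle for 42 and a triangle for 46 days. The osteoclast, leukocyte and fibrous sums of the proliferative arrays overlap the lowest of the others. The bone sums of 9641 and 8068 at 42 and 46 days (others 16996 to 224793) include Ibsp, Col1a1 and Col1a2, chosen as below all 6. Without these 3 they are 2591 and 4809 against 3280 to 21142, which overlap.

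Fibrous genes of the perichondrium and periosteum were low on balance. Of 33 measured members, 25 had a negative difference, the median was -0.85, and 0 passed. Below all 6 others were 6 (3.96% over all genes), the collagens Col1a1 and Col1a2, the fibrillin Fbn1, the growth factor receptor Pdgfra, the calcium-binding S100a4 and the protease Fap. Above all 6 were 2 (3.74%), the transcription factors Prrx1 and Twist2. Fbn1 read 6.34 and 6.98 against 8.51, 9.39 and 10.19, and S100a4 5.94 and 5.31 against 6.63, 8.17 and 9.94. Another Fbn1 probe set overlapped (-1.35). The summed intensity of the list was 34466 and 20615 against 25374 to 211645, so 1 proliferative array overlapped the others.

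Among 25 matrix proteases and inhibitors, 20 had a negative difference and the median was -0.56. The 2 called members were Mmp13 and Mmp9 (0.0352% over all genes). Adamts4, an aggrecan-cleaving protease, lay below all 6 others (3.96% over all genes) at 7.47 and 8.55 against 9.18, 9.77 and 10.83 (-1.85). Mmp11 and Mmp23 lay above all 6 (3.74% over all genes). Mmp11 read 9.21 and 8.84 against 6.02, 8.22 and 8.75, and Mmp23 9.61 and 10.37 against 6.70, 8.62 and 8.91. The probe sets of Mmp23 disagreed, since another lay below all 6 others (-1.52) and the last overlapped (-0.065). The median was -1.06 at 42 days and -0.38 at 46 days.

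**Figure D5:**
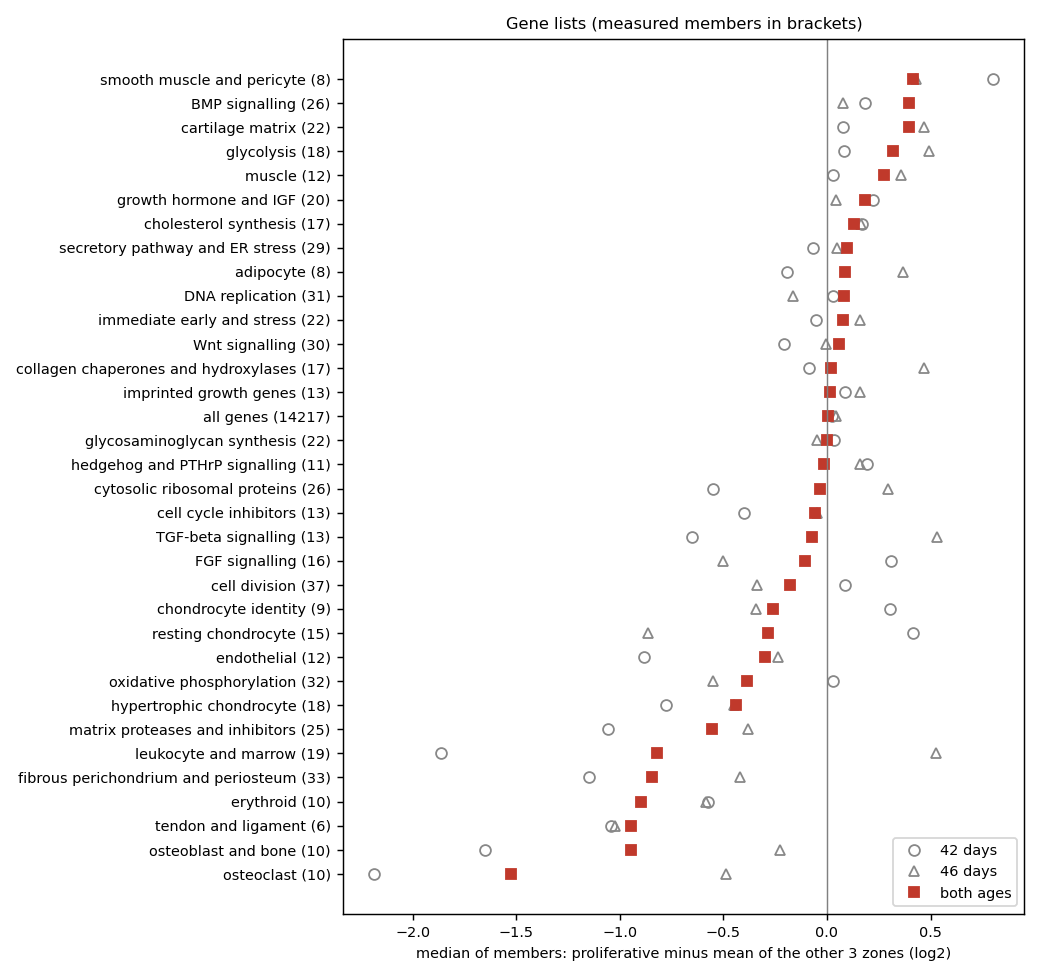
Median difference of 33 gene lists and all genes (proliferative minus the mean of the other 3 zones, log2), with circles for 42 days, triangles for 46 days and red squares for both ages together. The osteoclast list is lowest at -1.52, the cell division list sits at -0.18, and the ages of the leukocyte list lie apart at -1.87 and 0.52.

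Signalling genes of the plate were followed by role. Among 26 bone morphogenetic protein (BMP) genes, 19 had a positive difference and the median was 0.40, with 0 passing. With all probe sets of each gene the median was 0.065. Smad6, an inhibitor inside the cell, lay above all 6 others (3.74% over all genes) at 9.33 and 9.10 against 7.97, 8.5 and 8.73. Its other probe sets overlapped, with differences of -2.09, 0.62 and -0.16. Bambi, a decoy receptor, and Smad9, a signal transducer, lay below all 6 (3.96% over all genes). Bambi read 5.58 and 5.10 against 6.44, 8.20 and 9.08, and Smad9 7.03 and 8.91 against 9.47, 10.02 and 11.03. Bambi lay below the other-organ level on every array, and another Smad9 probe set overlapped (-0.88).

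Among 20 growth hormone and insulin-like growth factor genes, 11 were positive and 9 negative, the median was 0.18 and 0 passed. Above all 6 others were 2 (3.74% over all genes), Irs1 and the ligand Igf2. Irs1, which relays signals from the insulin and IGF receptors, read 11.91 and 11.83 against 9.96, 11.12 and 11.60. The probe set used for Igf2 read 8.73 and 8.78 against 4.74, 7.36 and 8.60. Other Igf2 probe sets went both ways, at -1.85, -0.93 and 1.05, and the one at -0.93 lay below all 6 others, so no direction is given for this gene. Stat5b, a transcription factor of growth hormone signalling, lay below all 6 (3.96% over all genes) at 6.46 and 4.46 against 6.71, 7.37 and 8.5. Neither Irs1 nor Igf2 kept its place in the values as deposited, without quantile normalization.

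In hedgehog and parathyroid hormone-related protein signalling, 11 genes had a median of -0.016. Boc, a hedgehog co-receptor, lay below all 6 others (3.96% over all genes). It read 5.89 and 6.77 in proliferative, 12.02 and 10.92 in perichondral, 13.72 and 9.64 in reserve and 8.80 and 9.05 in hypertrophic arrays. Perichondral and reserve values were spread over a wide range above the proliferative pair, and the difference was -4.36 (SE 0.79, limma adjusted p = 0.149). Wnt genes had a median of 0.057 over 30 members, with the secreted Wnt5b (-1.14) and Dkk3 (-2.44) below all 6 (3.96% over all genes). Other Dkk3 probe sets overlapped, at -0.27, -0.75 and 0.02. The 16 genes of fibroblast growth factor signalling had 0 members above or below all 6 others.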

How the data were processed

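Array intensity was measured for 31099 probe sets on 8 arrays. The deposited intensity values are linear, and their mean after trimming a share of 0.02 was near 500.1 on each array. The authors' tools were MAS5, GCOS and RMA per the submitters' processing notes, without versions or roles. Detection calls were not analysed here, and precision is limited by having only 8 arrays.

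Of the probe sets, 57 controls were left out. Intensities were taken as log2(intensity + 16) and quantile normalized, since array medians of the log2 of the deposited values spread from 7.92 to 8.51. In limma 3.58.1 (R 4.3.3), the 8 arrays were fitted jointly, 1 mean for each zone, and eBayes used a variance trend (residual degrees of freedom 4, prior 12.58), with Benjamini-Hochberg adjustment over 31042 probe sets. The threshold was an adjusted p of 0.05.

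Symbols came from the platform annotation, with 20758 updated by gene identifier, 2 by accession and 66 kept as given. In all, 20826 probe sets had 1 symbol, 436 several and 9780 none. A gene took its probe set with the highest mean. The other-organ level used 32 of 36 listed genes. Of a fixed growth plate panel of 18 genes, 15 were measured.

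Named genes were the 15 with the largest gap in each direction above the other-organ level, called genes without overlap (up to 10 a direction), up to 4 members per list without overlap, and the panel. Npr2, Panx3, Dmp1, Bglap, Ctsk, Acp5, Twist2, Pdgfra and Fap are named outside this rule, after their values were seen. The members, the 33 lists and the rule were chosen with earlier results of these data known. Alternatives were the values as deposited, median centring, pseudocounts 1 and 64, only probe sets above the median mean, no trend, the 6 others as 1 group, age as a replicate block, all probe sets of a gene and each array left out. Simulated data for this contrast were drawn in repeated runs of 31042 probe sets, with 1000 changed per size of change over all runs. Of these, 0%, 5.8% and 78.4% were recovered for changes of 1, 2 and 4 (log2). False calls, also summed over the runs, were 0, 7 and 36.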

Additional observations from a re-analysis of the deposited data

Results flagged for a closer look

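In 2 gene lists the proliferative array was above all 3 other arrays at one age and below all 3 at the other. The quantity compared was the median level of the list on an array. For the TGF-beta signalling list it lay 1.46 below the mean of the other zones at 42 days (-1.46) and above it at 46 days (0.59). For the adipocyte list the values were -0.16 at 42 days and 0.54 at 46 days. The difference between the ages was not tested in either list, since each age has 1 proliferative array.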

How the results depend on the processing

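Of 1295 values recomputed for named genes, 1233 kept their direction and side of the threshold. The 6 lower probe sets became 3 with arrays centred on their medians, with pseudocount 1 or among probe sets above the median mean, 2 with the 6 others as 1 group and 0 without a variance trend (1874 at an unadjusted p under 0.05). With an array left out the count ran from 0 (without the 46-day proliferative array, 1565 at an unadjusted p under 0.05) to 30 (without the 46-day hypertrophic array). A zone left with 1 array was assumed to vary like the others. The count was 10 without the 42-day proliferative array, 2 and 3 without the 42-day and 46-day reserve arrays. Probe sets above all 6 others numbered 711 and below 584 with that filter on dim probe sets, and from 1587 to 5451 and from 1343 to 4600 with an array left out. The cause was not tested, beyond fewer values to clear and fewer probe sets tested.

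With age as a replicate block the lower count was 23, which held all 6 and added Boc, Steap4, Col1a1 and Col1a2 among others, and the pairwise counts were 13 lower than perichondral, 60 lower than reserve, 5 higher and 6 lower than hypertrophic. The labels do not say that an age marks shared rats. Age differences correlated between zones at r from 0.0225 to 0.0806 over all probe sets and from 0.0581 to 0.310 over the brightest 0.2. Not every pair of zones exceeded 0.1 on either, so the ages were not taken as pairs.

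Directions turned for Matn1 with median centring (-0.069) and Ccnd1 as deposited (0.078). With an array left out the differences ran from -0.13 to 0.29 for Col2a1, -0.14 to 0.39 for Matn1, -1.28 to 0.92 for Ihh, -0.31 to 0.076 for Mki67, -2.01 to 0.11 for Top2a and -0.44 to 0.38 for Ccnd1. List medians moved to -0.37 (hypertrophic) and -0.81 (fibrous) as deposited, and to -0.036 (DNA replication), -0.60 (fibrous) and 0.072 (growth hormone and IGF) with all probe sets of a gene. That setting also gave 0.065 (BMP), -0.26 (leukocyte) and -0.021 (chondrocyte identity), and the values as deposited -0.49 (chondrocyte identity) and -0.28 (ribosomal). In 8 of 33 lists the median turned sign in 1 of these settings or both, all with a median within 0.088 of 0. The median of all probe sets was 0.05, 0.10 as deposited and -0.03 with median centring. Of 67 named genes without overlap, 57 kept it as deposited and 58 with median centring. Those that lost it as deposited were Bub1, Prc1, Pola2, Col1a2, Gata1, Igf2, Irs1, Ext1, Ndufb3 and Rpl3, and with median centring Nectin2, Tfap2b, Scrg1, Col1a2, Irs1, Mmp11, Ext1, Ndufb3 and Rpl3.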

Other observations

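Metabolic and ribosomal genes were followed as lists. Glycolysis had a median difference of 0.32 over 18 genes, oxidative phosphorylation -0.39 over 32, cytosolic ribosomal proteins -0.031 over 26 and the secretory pathway 0.096 over 29, and no member of these passed. Ndufb3, a subunit of complex I, lay above all 6 others (3.74% over all genes) at 12.09 and 12.43 against 10.95, 11.55 and 12.04. Rpl3, a ribosomal protein, lay below all 6 (3.96% over all genes) at 10.24 and 10.04 against 10.27, 10.66 and 11.90. Both overlapped in the values as deposited and with median centring.

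Enzymes of the matrix chains were mixed. Of 22 glycosaminoglycan genes 11 were positive and 11 negative. Ext1, which builds heparan sulfate, was above all 6 others (3.74% over all genes) at 10.85 and 10.91 against 6.79, 10.48 and 10.83. Loxl2, a crosslinker of collagen, was also above all 6 (3.74% over all genes). It read 8.68 and 9.09 against 4.77, 7.58 and 8.58, while its other probe set had a difference of -0.02. Of 13 imprinted growth genes 7 were positive and 6 negative. Meg3, a non-coding RNA, lay below all 6 others (3.96% over all genes) at 7.82 and 5.50 against 7.98, 8.41 and 10.26. The smooth muscle and pericyte list had a median of 0.42 over 8 genes, the tendon list -0.94 over 6 and the chondrocyte identity list -0.26 over 9.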
